A study of Homo sapiens with 6 samples.

Results

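Interferon-stimulated genes (ISGs) are the genes a cell switches on when interferon binds its surface receptors or when foreign nucleic acid is sensed inside the cell. Here 47 ISGs were followed in HGC27 gastric cancer cells by RNA-seq, out of 39739 gene rows in the deposited tables. The 47 were chosen by gene symbol, from results of the same comparison of the same libraries that were already known. Their differences between the groups are therefore a description and not independent evidence of a direction, and no test is given for them. All 47 symbols were found.

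HGC27 is a line from an undifferentiated human gastric carcinoma. The HGC27-FN1 3′-UTR cells stably overexpressed the 3′-untranslated region of *FN1*, the fibronectin gene, after lentiviral infection and puromycin selection. The other group was HGC27-control cells, and whether these carried an empty vector or went through the same selection is not given in the sources used here. Both groups were grown in RPMI-1640 medium with 10% fetal bovine serum, and the labels name no added interferon or other agent. There were 3 libraries per group. The methods describe 1 stable line, and the labels do not say that the libraries came from separate cultures, so p-values measure only the spread between libraries, which may be technical. Reads assigned to genes numbered 16357085 to 29202046 per HGC27-FN1 3′-UTR library and 22332816 to 37037532 per control library. The overexpressed gene, *FN1*, read 0.777, 0.745 and 0.819 RPKM (reads per kilobase of gene and per 1000000 assigned reads) in HGC27-FN1 3′-UTR cells and 0.543, 0.474 and 0.532 in control cells, a log2 fold change of 0.52 ± 0.11 (SE; limma adjusted p = 0.0292). The call, at a limma adjusted p under 0.05 over all tested genes, was lost in each of the 6 fits with a library left out, where the log2 fold change was 0.46 to 0.55, and gene-level values do not show which part of *FN1* the reads came from.

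In the classical pathway, type I interferons bind the IFNAR1 and IFNAR2 receptor chains, and the kinases JAK1 and TYK2 phosphorylate STAT proteins. STAT2 is one of these and joins with IRF9 in the factor ISGF3, which binds the interferon-stimulated response element (ISRE) in ISG promoters. A second route begins with RNA sensors such as RIG-I and MDA5, or with DNA sensors that signal through the adaptor STING, and activates IRF3 and IRF7. The products of ISGs sense viral RNA, block entry, translation or release of viruses, tag proteins with the ubiquitin-like ISG15, or recruit lymphocytes.

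The ISRE core was looked for because it is the DNA element these genes are known to share and because the choice of the genes did not use sequence. RefSeq promoters of GRCh38.p14, each running from 250 bases before to 50 bases after a gene's start, were given for 38 of the 47 genes, with *DDX58* matched under its newer symbol *RIGI*. The searched motif was GAAANNGAAA on either strand, where N is any base and matches may overlap each other. It occurred in the promoters of 25 of the 38 genes (65.8%), against 4.38% of all 27305 genes with a promoter in the same table. With 1 mismatch allowed in the fixed letters, 34 of the 38 (89.5%) and 37.7% of all genes held it. The windows below show 10 genes with a higher level in HGC27-FN1 3′-UTR cells and then 2 genes, *IFIT5* and *PARP14*, whose element is as complete but whose level differed little. Each is written 5′ to 3′ on the strand of the gene, with the match in capitals, so that TTTC marks an element lying on the opposite strand.
*ISG15*, chr1:1013380-1013409, plus strand: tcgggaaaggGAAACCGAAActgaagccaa
*IFI6*, chr1:27672288-27672317, minus strand: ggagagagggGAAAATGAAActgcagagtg
*IFI44*, chr1:78649761-78649790, plus strand: gcacactgagTTTCAGTTTCctttctctga
*IFIT1*, chr10:89392510-89392539, plus strand: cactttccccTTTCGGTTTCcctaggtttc
*IFIT3*, chr10:89332468-89332497, plus strand: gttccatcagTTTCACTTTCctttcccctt
*BST2*, chr19:17405741-17405770, minus strand: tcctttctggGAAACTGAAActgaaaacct
*SAMD9*, chr7:93118096-93118125, minus strand: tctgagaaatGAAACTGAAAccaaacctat
*EPSTI1*, chr13:42992272-42992301, minus strand: ctgattctgaGAAACCGAAActcagctgtt
*IFI27*, chr14:94110618-94110647, plus strand: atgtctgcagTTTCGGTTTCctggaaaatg
*IFITM3*, chr11:320876-320905, minus strand: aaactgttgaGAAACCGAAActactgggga
*IFIT5*, chr10:89414513-89414542, plus strand: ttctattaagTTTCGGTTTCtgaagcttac
*PARP14*, chr3:122680800-122680829, plus strand: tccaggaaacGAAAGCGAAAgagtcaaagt
A match is a stretch of letters and not a measured binding site. The *PARP9* and *DTX3L* genes are read in opposite directions from a shared region, and one and the same match, chr3:122564322-122564351 with its flanks, lies in the promoters of both. The *IFI44L* promoter held a match in each copy of a repeated 30-base sequence, at chr1:78620274-78620303 and again at chr1:78620365-78620394. No match under these letters says nothing about binding of a factor elsewhere.

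Across the 47 genes, the level was mostly higher in HGC27-FN1 3′-UTR cells. RPKM is a level per length, so it can be compared between genes. A gene was tested where its RPKM reached 0.1 in at least 3 libraries, on log2(RPKM + 0.1), and called at a limma adjusted p under 0.05 over all tested genes. Of the 47 ISGs 36 were tested, 23 were called higher and 13 were not called. Over all 23299 tested genes 5.62% were called higher and 7.36% lower, and nothing is read from the difference because this contrast chose the list. With limma no ISG was called lower, 1 (*USP18*) had an unadjusted p under 0.05 in that direction, and limma voom on recovered reads called 1 lower. The median log2 fold change of the 36 was 0.69, with a range of -0.25 to 1.54, against -0.04 for all tested genes. Such fold changes are on the log2(RPKM + 0.1) scale and understate the change of genes with low levels.

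Another way to count is by the values themselves. All 3 HGC27-FN1 3′-UTR libraries lay above all 3 control libraries for 26 of the 36 ISGs, as for 14.3% of all tested genes. All 3 lay below for *USP18* alone, as for 21.7% of all tested genes, and the groups overlapped for 9. By a criterion of an absolute log2 fold change above 1 with an unadjusted p under 0.05, 11 ISGs were higher and 0 lower, where 1.65% and 0.815% of all tested genes were. *IFIH1*, *OAS1*, *OASL*, *EPSTI1* and *CXCL10* passed the filter only through the HGC27-FN1 3′-UTR group, and so had to differ. Of the 31 ISGs that passed in both groups, 18 were called higher (58.1%), against 5.20% of all genes that passed in both, and the median log2 fold change of the 31 was 0.53. Scaling the libraries by median ratios changed the split of calls over all genes from 1310 higher and 1715 lower to 1696 higher and 1331 lower, while the ISG counts stayed at 23 higher and 0 lower.

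**Figure D1:**
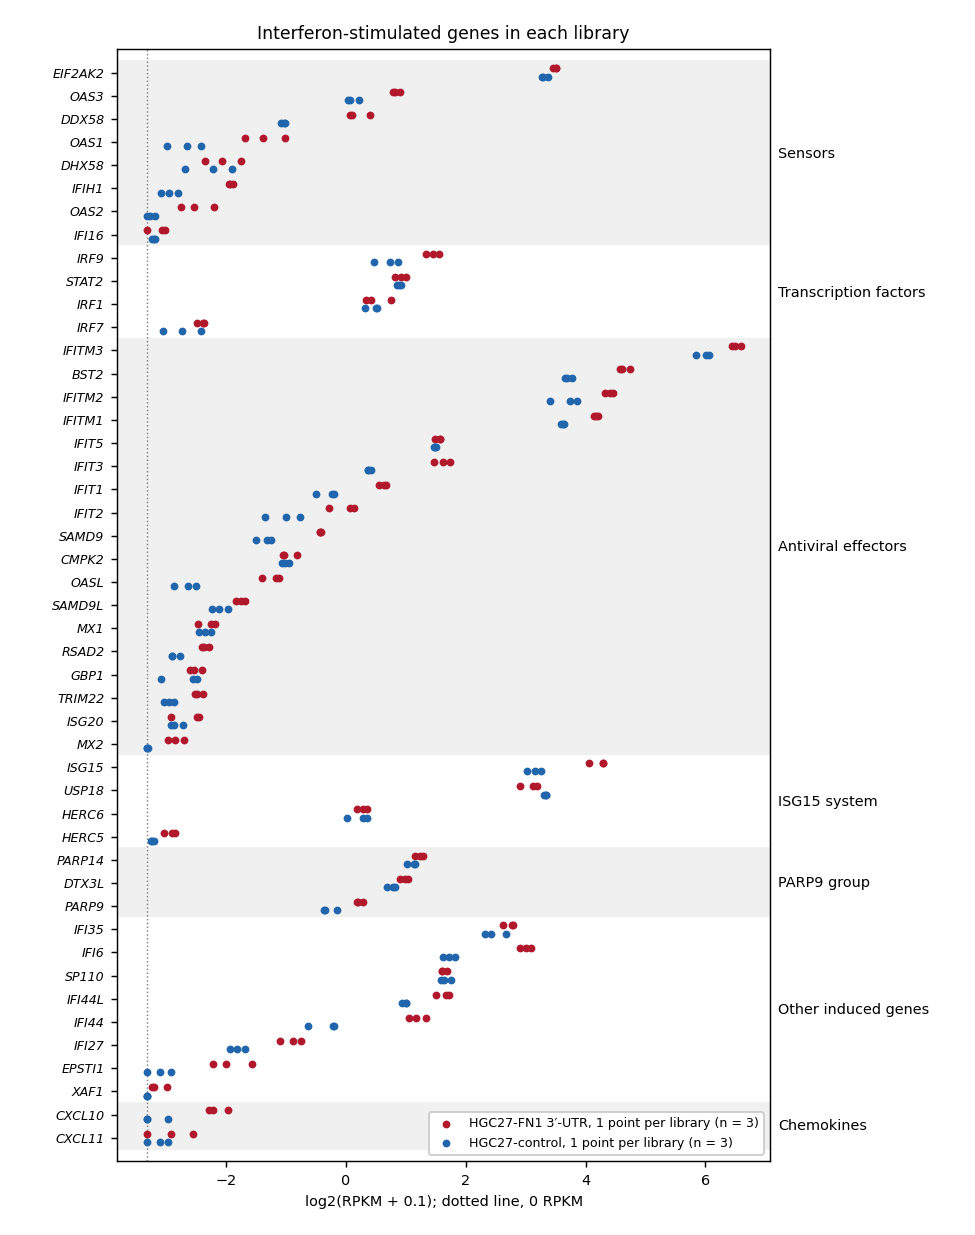
Level of each of the 47 genes in each library, as log2(RPKM + 0.1), with 1 point per library and genes ordered by mean level within each functional group. For 26 of the 36 tested genes the 3 red points (HGC27-FN1 3′-UTR) lie wholly to the right of the 3 blue points (HGC27-control), and for *USP18* they lie wholly to the left. *IFIH1*, *OAS1*, *OASL*, *EPSTI1* and *CXCL10* had to lie so, because they passed the filter only through the HGC27-FN1 3′-UTR group.

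Of the 8 nucleic acid sensors, 6 were tested and 5 were called higher, where 5.62% of all tested genes were. *IFIH1* and *OAS1* passed the filter only through the HGC27-FN1 3′-UTR group, and 3 of the 4 that passed in both were called. Nothing is read from such counts by function, because this contrast chose the list. *DDX58*, at chr9:32455705-32526324 of the GRCh38 build, encodes RIG-I, the cytosolic sensor of viral RNA ends. It measured 1.22, 0.978 and 0.952 RPKM in HGC27-FN1 3′-UTR libraries 1 to 3 and 0.391, 0.395 and 0.372 in control libraries 1 to 3. The lowest HGC27-FN1 3′-UTR value was above every control value, and the log2 fold change was 1.24 ± 0.13 (SE, n = 3 per group). *IFIH1*, which encodes MDA5, the sensor of long double-stranded RNA, was far lower in level. It stood at 0.162, 0.172 and 0.159 RPKM against 0.0297, 0.0430 and 0.0179, which is 52 reads against 12 over each group's 3 libraries. The HGC27-FN1 3′-UTR libraries were almost equal to each other, and the log2 fold change was 1.03 ± 0.22.

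The 2′-5′-oligoadenylate synthetases make the messenger that activates RNase L on double-stranded RNA. *OAS1* had values of 0.210, 0.397 and 0.284 RPKM in HGC27-FN1 3′-UTR cells and 0.0272, 0.0590 and 0.0873 in control cells, a log2 fold change of 1.32 ± 0.27. *OAS3* had 1.76, 1.66 and 1.64 RPKM against 1.07, 0.928 and 0.946, a log2 fold change of 0.73 ± 0.09. Neither gene's groups overlapped, but *OAS1* passed the filter only through the HGC27-FN1 3′-UTR group and so had to differ. *OAS3* was the more tightly measured of the pair. *OAS2*, the third gene of this chromosome 12 cluster, was below the filter at 0.117, 0.0719 and 0.0492 RPKM against 0, 0.0104 and 0.00431, or 32 reads against 3. *EIF2AK2* encodes PKR, the kinase that stops translation on double-stranded RNA, and was the most abundant sensor. Its values of 11.2, 11.2 and 10.9 RPKM against 10.2, 9.71 and 9.56 did not overlap, but the log2 fold change was only 0.18 ± 0.04. *DHX58*, which encodes the RIG-I-related protein LGP2, overlapped between the groups with a log2 fold change of 0.20 ± 0.30, and *IFI16*, a DNA sensor, had 6 reads against 4.

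Among the 4 transcription factors, 1 of the 3 tested was called higher, where 5.62% of all tested genes were. *IRF9*, the DNA-binding subunit of ISGF3 at chr14:24161053-24166565, reached 2.42, 2.84 and 2.63 RPKM in HGC27-FN1 3′-UTR cells and 1.29, 1.73 and 1.57 in control cells. The groups stood apart with a log2 fold change of 0.75 ± 0.12. *IRF9* shares exon bases with 1 gene on its own strand, so part of its reads may belong to that gene. The other tested factors did not differ beyond the spread of their libraries. *STAT2*, the partner of IRF9 in ISGF3, had a log2 fold change of 0.03 ± 0.07 and means of 1.79 and 1.75 RPKM, and *IRF1* had 0.06 ± 0.13. *IRF7*, the amplifier of interferon production, was below the filter with 16 reads against 12 and overlapping groups.

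The 18 antiviral effectors held 9 of the 23 calls, from 13 tested. Of the 12 that passed the filter in both groups 8 were called, and *OASL* passed only through the HGC27-FN1 3′-UTR group. Over all tested genes 5.62% were called higher. The IFIT proteins bind viral RNA that lacks the host's cap marks, and their 4 genes lie in a row on chromosome 10. *IFIT3*, at chr10:89327894-89340971, measured 2.96, 3.24 and 2.66 RPKM against 1.19, 1.24 and 1.20, a log2 fold change of 1.22 ± 0.09. *IFIT1*, at chr10:89392546-89406486, measured 1.48, 1.38 and 1.45 RPKM against 0.777, 0.605 and 0.755, a log2 fold change of 0.93 ± 0.11. *IFIT2*, at chr10:89283694-89309276, measured 0.999, 0.719 and 0.952 RPKM against 0.295, 0.491 and 0.402, a log2 fold change of 1.01 ± 0.20. These genes had mean levels 2.02 to 2.45 times those of control cells, and none of them overlapped between the groups. Of all tested genes 14.3% were likewise higher without overlap. *IFIT5*, the neighbour at chr10:89414586-89421001, stood apart from this pattern with a log2 fold change of 0.05 ± 0.05, means of 2.80 and 2.71 RPKM and overlapping groups, although its promoter held 3 matches of the ISRE core. *IFIT2* shares exon bases with 1 gene on its own strand and with *LIPA* on the other, so part of its reads may belong to those genes.

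The IFITM proteins sit in endosomal and plasma membranes and hinder the fusion of enveloped viruses. *IFITM3* was the most abundant of the 47 genes and held 38.1% of their summed mean RPKM. It read 89.8, 95.9 and 87.1 RPKM in HGC27-FN1 3′-UTR cells and 57.5, 64.4 and 66.6 in control cells, a log2 fold change of 0.53 ± 0.06. *IFITM2* had 21.1, 20.0 and 21.8 RPKM against 10.5, 13.3 and 14.3, a log2 fold change of 0.73 ± 0.11. *IFITM1* had 17.5, 18 and 18.5 RPKM against 11.9, 12.4 and 12.2, a log2 fold change of 0.56 ± 0.03. In absolute terms these were among the widest gaps, since the mean of *IFITM3* alone differed by 28.1 RPKM. The genes are close paralogs, and *IFITM1* and *IFITM2* share exon bases on the same strand, so the division of reads among them is uncertain.

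*BST2* encodes tetherin, which holds budding virus particles on the cell surface. Its values of 23.8, 24.1 and 26.5 RPKM against 13.5, 12.8 and 12.5 gave a log2 fold change of 0.93 ± 0.05, with a mean 1.91 times that of control cells. *SAMD9*, a restriction factor of poxviruses, read 0.642, 0.651 and 0.644 RPKM against 0.320, 0.303 and 0.252, a log2 fold change of 0.93 ± 0.13. Its 3 HGC27-FN1 3′-UTR libraries were nearly identical. *SAMD9L*, the adjacent paralog, had a log2 fold change of 0.35 ± 0.19 and was not called, though its groups did not overlap. *OASL*, a synthetase relative that binds RIG-I, read 0.348, 0.279 and 0.36 RPKM against 0.0764, 0.0369 and 0.0614, a log2 fold change of 1.44 ± 0.21, on 81 reads against 18.

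The remaining effectors were low or differed little. *MX1*, the dynamin-like GTPase that is often used as a marker of interferon response, stayed between 0.081 and 0.121 RPKM in every library, and its log2 fold change was 0.05 ± 0.22. *CMPK2*, a mitochondrial nucleotide kinase, had a log2 fold change of 0.04 ± 0.14. Below the filter were 5 effectors, *MX2*, *RSAD2*, *TRIM22*, *ISG20* and *GBP1*, whose reads are given with the other low genes.

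**Figure D2:**
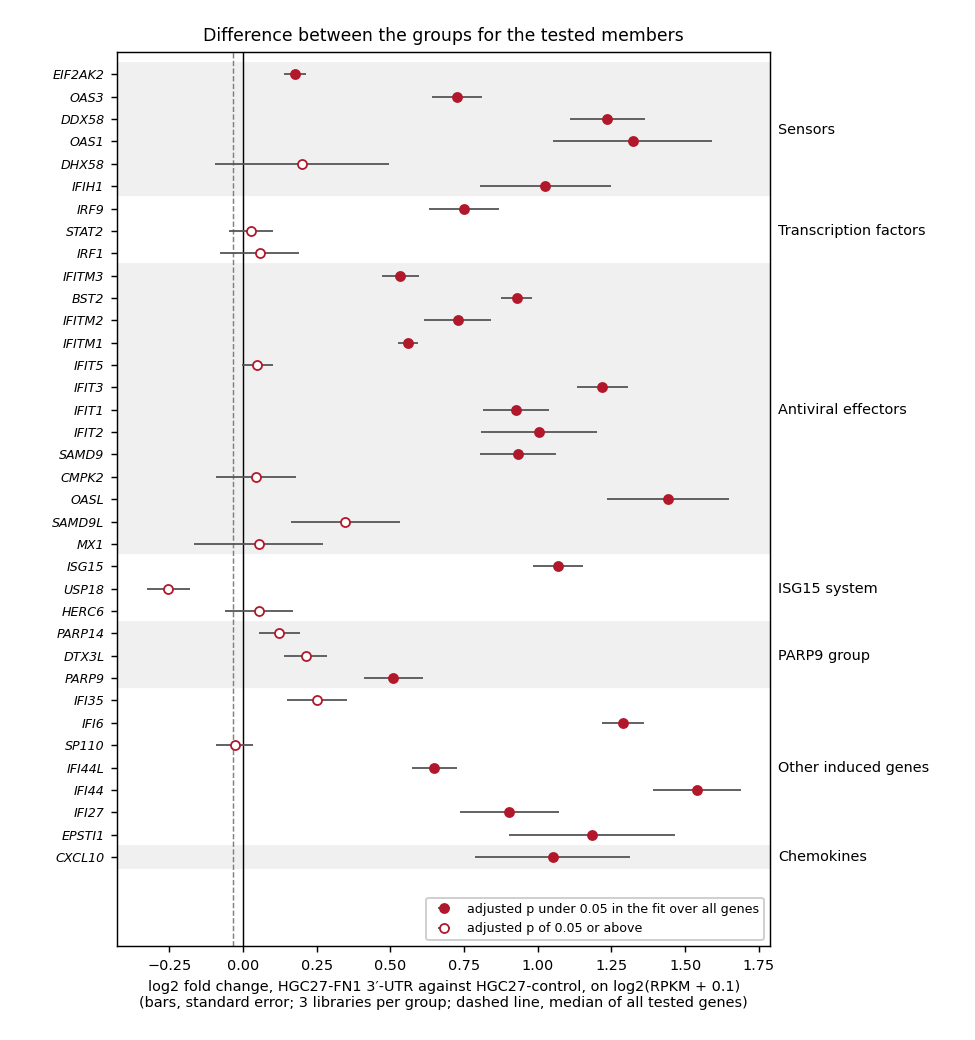
Log2 fold change of HGC27-FN1 3′-UTR against HGC27-control cells for the 36 tested genes by functional group, with standard errors (3 libraries per group). Filled points are the 23 genes called over all genes, open points the 13 that were not, and the dashed line is the median of all tested genes at -0.04.

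The ISG15 system split within itself. *ISG15*, at chr1:1001138-1014541, encodes the ubiquitin-like modifier, and read 19.5, 16.6 and 19.4 RPKM in HGC27-FN1 3′-UTR cells and 7.99, 9.44 and 8.86 in control cells. The mean was 2.11 times that of control cells and the log2 fold change was 1.07 ± 0.09. *USP18*, the protease that removes ISG15 and dampens signalling at IFNAR2, lay on the other side. It read 7.44, 8.62 and 9.02 RPKM against 9.76, 10.1 and 10.0, a log2 fold change of -0.25 ± 0.07 that was not called. Every HGC27-FN1 3′-UTR library was below every control library, and this was the only one of the 36 tested ISGs of which that held. The level of *USP18* is uncertain because *USP41* is a near-identical copy, itself at 0.051 to 0.215 RPKM. *HERC6*, a ligase relative, had a log2 fold change of 0.05 ± 0.12, and *HERC5*, the main human ISG15 ligase, had 10 reads against 3.

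*PARP9*, *DTX3L* and *PARP14* lie side by side on chromosome 3, and PARP9 and DTX3L act as a complex. *PARP9* read 1.12, 1.04 and 1.05 RPKM against 0.802, 0.690 and 0.680, a log2 fold change of 0.51 ± 0.10. *DTX3L* had a log2 fold change of 0.21 ± 0.07 and *PARP14* of 0.12 ± 0.07. Neither these nor *PARP9* overlapped between the groups, but *PARP9* alone was called. Of all tested genes 14.3% were likewise higher without overlap. For *PARP14* the lowest HGC27-FN1 3′-UTR value, 2.138 RPKM, lay barely above the highest control value, 2.135 RPKM. *PARP9* and *DTX3L* share exon bases on opposite strands, and whether reads were counted by strand is not given in the sources used here.

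Of 8 further induced genes, 7 were tested and 5 called higher, where 5.62% of all tested genes were. Of the 6 that passed the filter in both groups 4 were called. *IFI44*, at chr1:78649796-78664078, had the largest log2 fold change of the 36. It read 2.16, 1.97 and 2.44 RPKM in HGC27-FN1 3′-UTR cells and 0.769, 0.764 and 0.543 in control cells, and the log2 fold change was 1.54 ± 0.15. Its neighbour *IFI44L* read 2.73, 3.19 and 3.08 RPKM against 1.91, 1.90 and 1.81, a smaller log2 fold change of 0.65 ± 0.08. *IFI6*, which encodes a mitochondrial and endoplasmic reticulum protein that protects against cell death, read 7.42, 7.95 and 8.43 RPKM against 3.42, 3.19 and 2.97. Among genes above 3 RPKM on average it was the one with the largest log2 fold change, 1.29 ± 0.07. *IFI27*, a related gene used in blood signatures of viral infection, read 0.369, 0.444 and 0.495 RPKM against 0.184, 0.211 and 0.163, a log2 fold change of 0.90 ± 0.17. *EPSTI1* read 0.149, 0.116 and 0.236 RPKM against 0, 0.0330 and 0.0164, or 60 reads against 8, a log2 fold change of 1.18 ± 0.28. All 5 genes kept their groups apart, as 14.3% of all tested genes did in this direction. For *EPSTI1* this was fixed, since it passed the filter only through the HGC27-FN1 3′-UTR group.

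*IFI35* and *SP110* were expressed at several RPKM and were not called. *IFI35*, whose protein partners with NMI, read 6.04, 6.79 and 6.70 RPKM against 5.24, 4.88 and 6.31, so that control library 3 lay within the HGC27-FN1 3′-UTR range, and the log2 fold change was 0.25 ± 0.10. *SP110*, a nuclear body protein, read 2.94, 3.13 and 2.95 RPKM against 3.28, 2.91 and 3.02, a log2 fold change of -0.03 ± 0.06 with overlapping groups. *SP110* shares exon bases with genes on both strands.

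The chemokines were close to the limit of detection. *CXCL10*, which attracts T cells through CXCR3, read 0.156, 0.104 and 0.116 RPKM against 0, 0.0276 and 0, with a log2 fold change of 1.05 ± 0.26. These values rest on 10 reads against 1, a ratio of read rates of 12.9 with an exact 95% interval of 1.83 to 559 for counting error. *CXCL11*, its neighbour on chromosome 4, had 5 reads against 3.

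For the 11 ISGs below the filter, reads summed over the 3 libraries of a group were compared as read rates, that is, reads relative to all assigned reads, with exact 95% intervals that cover counting error only and not the spread between libraries. *MX2*, the nuclear relative of *MX1*, had 38 reads against 1, a ratio of 49.0 (8.27 to 1985). *OAS2* had a ratio of 13.7 (4.30 to 70.2). *TRIM22*, a ubiquitin ligase of the tripartite motif family, had 34 reads against 16, a ratio of 2.74 (1.47 to 5.31). These genes and *RSAD2*, *HERC5* and *XAF1* were the 6 low ISGs whose groups did not overlap. The share of all genes below the filter without overlap was not taken, so nothing is read from this count. For *HERC5* and *XAF1* only a few reads per library decided it. *RSAD2*, which encodes viperin, had 33 reads against 16, a ratio of 2.66 (1.42 to 5.17), and *HERC5* had 4.30 (1.11 to 24.3). *XAF1*, a proapoptotic gene, had 7 reads against 0, and the exact interval of its ratio began at 1.86 with no upper bound. Against a floor of 3 reads over the control group its level was at least 3.01-fold higher, which leaves out the counting error of its own 7 reads. The ratios of *ISG20*, *IRF7*, *IFI16*, *GBP1* and *CXCL11* lay between 1.29 and 2.15 with overlapping groups. Their differences were not detectable at this depth. For *ISG20*, 36 reads against 27 gave an interval of 1.01 to 2.94, which leaves out the spread between libraries. Its libraries read 0.0332, 0.0834 and 0.0791 RPKM against 0.0365, 0.0529 and 0.0330, so that HGC27-FN1 3′-UTR library 1 lay below control libraries 1 and 2. Over all 47 ISGs the read rate was higher in HGC27-FN1 3′-UTR cells for 45, as for 46.2% of the 36521 genes with any read.

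**Figure D3:**
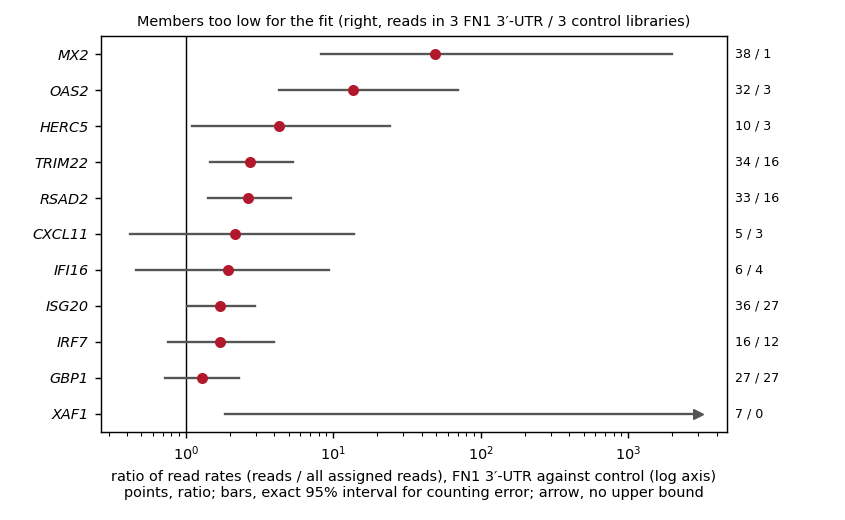
Ratio of read rates, HGC27-FN1 3′-UTR against HGC27-control, for the 11 genes below the filter, on a log axis, with exact 95% intervals for counting error and the summed reads at the right. *MX2* and *OAS2* stand farthest to the right at 49.0 and 13.7, and *XAF1* has no upper bound because no control read was counted.

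The members differed by level as well as by function. The 6 ISGs with a mean of at least 10 RPKM over all libraries, *IFITM3*, *BST2*, *IFITM2*, *IFITM1*, *ISG15* and *EIF2AK2*, were all called, with means 1.13 to 2.11 times those of control cells. Between 1 and 10 RPKM 7 of 16 were called, and between 0.1 and 1 RPKM 7 of 11. Below 0.1 RPKM lay 14 ISGs, of which 3 were tested. *OAS1* and *OASL*, between 0.1 and 1 RPKM, and *IFIH1*, *EPSTI1* and *CXCL10*, below it, passed the filter only through the HGC27-FN1 3′-UTR group. These had to differ. Shares over all genes at the same levels were not taken, so nothing is read from these counts. Summed over all 47 genes, the RPKM was 238 to 244 in HGC27-FN1 3′-UTR libraries and 154 to 167 in control libraries.

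Genomic neighbours were not always called together. Members within 250 kb of each other formed 10 clusters that held 25 of the 47 genes. In the IFITM cluster on chromosome 11 and the *IFI44L* and *IFI44* pair on chromosome 1 each gene was called. In the IFIT cluster *IFIT2*, *IFIT3* and *IFIT1* were called and *IFIT5* was not, in the chromosome 7 pair *SAMD9* was called and *SAMD9L* was not, and in the chromosome 3 cluster *PARP9* was called and *DTX3L* and *PARP14* were not. On chromosome 21 *MX2* and *MX1* lie next to each other. *MX2* had 1 read in control cells and 38 in HGC27-FN1 3′-UTR cells, and *MX1* had 76 and 62. Relative to all assigned reads, the ratio of HGC27-FN1 3′-UTR to control read rates was 49.0 for *MX2* and 1.05 for *MX1*. The lower read sum of *MX1* in HGC27-FN1 3′-UTR cells is therefore not a lower level. These differences between neighbours were not tested.

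The promoter matches can be set beside the levels. The matches were not used to choose the genes, but the levels were, and the ISRE is a known trait of ISGs. Of the 25 ISGs with a match, 21 were tested, 17 were called and the median log2 fold change was 0.90. The 4 tested ISGs with a match that were not called were *IFIT5*, *MX1*, *DTX3L* and *PARP14*. Of the 13 without a match, 10 were tested, 3 were called and the median was 0.15. The 3 called without a match were *DDX58*, *OAS1* and *IRF9*. Among the called genes, *IFIH1*, *EPSTI1* and *CXCL10* with a match and *OAS1* without one passed the filter only through the HGC27-FN1 3′-UTR group. These had to differ. The difference between the sets is given as a description without a test.

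**Figure D4:**
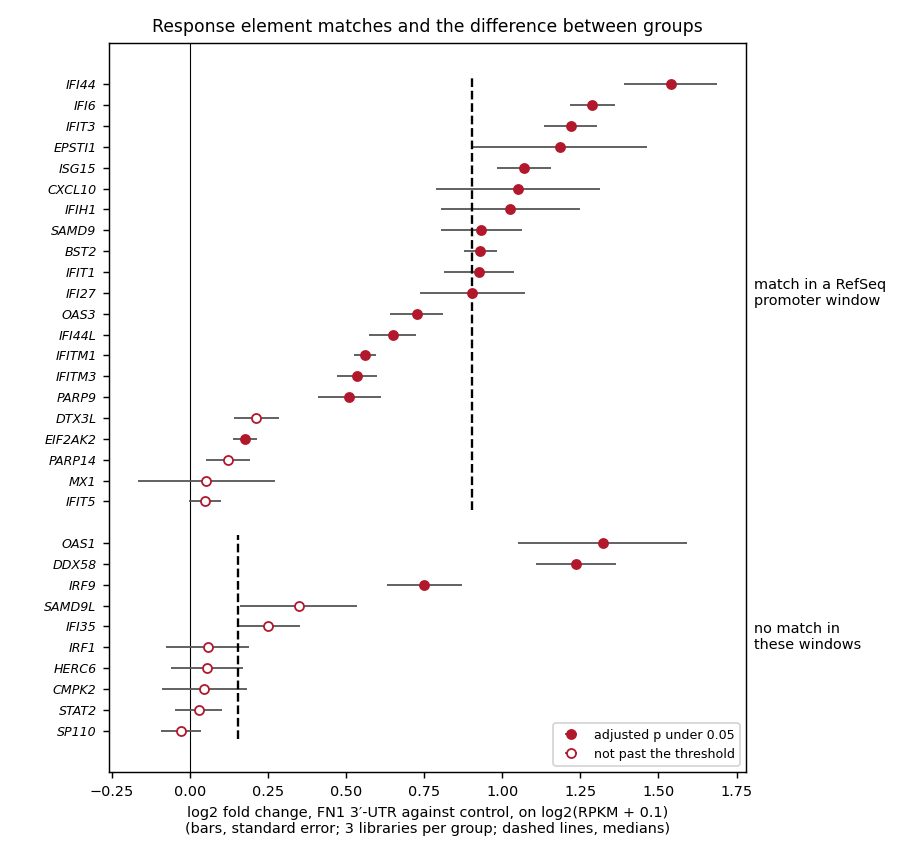
Log2 fold change with standard error for the 31 tested genes with a RefSeq promoter, split by whether the motif occurred on either strand. With a match 17 of 21 genes were called and the median (dashed line) was 0.90, and without one 3 of 10 were called and the median was 0.15. Of the called genes, *IFIH1*, *EPSTI1*, *CXCL10* and *OAS1* passed the filter only through the HGC27-FN1 3′-UTR group.

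The other genes of the pathway were taken from a list of 97 that excludes the 47, of which 89 were found and 67 were tested. In this list 9 were called higher (13.4%) and 6 lower (8.96%), against 5.62% and 7.36% of all tested genes. The median log2 fold change was -0.01. Ligands were almost absent, since the 8 interferon genes found had 5 reads in all over the 6 libraries and 5 of them had none. The receptor chains and kinases of type I interferon signalling did not differ beyond the spread of the libraries. *IFNAR1* had a log2 fold change of -0.02 ± 0.05, *IFNAR2* of -0.08 ± 0.06, *JAK1* of -0.08 ± 0.05 and *TYK2* of -0.01 ± 0.05, with limma adjusted p-values of 0.822, 0.439, 0.301 and 0.944. Of all 9 receptors and kinases, 2 were called higher and 1 lower. The higher ones were *IFNGR1* and *IFNGR2*, the chains of the interferon gamma receptor, at log2 fold changes of 0.36 ± 0.05 and 0.26 ± 0.05.

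*TMEM173* encodes STING, the adaptor of cytosolic DNA sensing. It read 1.45, 1.32 and 1.60 RPKM against 0.698, 0.649 and 0.722, a log2 fold change of 0.97 ± 0.10 (limma adjusted p = 0.00404), and it was the only one of the 9 tested sensing adaptors and kinases called higher. *MAVS*, the adaptor of RIG-I and MDA5, was called lower, with a log2 fold change of -0.25 ± 0.04 (limma adjusted p = 0.0135), and is named after its values were seen. Its call held in 9 of 13 alternatives, and the losses included the fits without HGC27-FN1 3′-UTR library 1 or 2 or control library 2. Its adjusted p lay between 0.00016 and 0.066 over all alternatives. Of the pathway genes, 6 were called lower and 9 higher. The others called lower were *UBE2L6*, *TDRD7*, *IFNLR1*, *IRF2* and *WARS*, with log2 fold changes of -0.47, -0.43, -0.40, -0.36 and -0.26. *SOCS3*, a feedback inhibitor of cytokine receptors, read 2.59, 2.07 and 2.23 RPKM against 1.44, 1.42 and 1.85, a log2 fold change of 0.52 ± 0.13 (limma adjusted p = 0.0477). That call held in 1 of 6 fits with a library left out, the one without control library 3. Its adjusted p lay between 0.00478 and 0.144 over all alternatives.

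Of 32 further type I interferon targets tested, 5 were called higher and 2 lower. Besides *LGALS3BP* and *APOL1*, the higher ones were *SP100*, *TRIM5* and *PNPT1*, with log2 fold changes of 0.47, 0.25 and 0.19. *LGALS3BP*, a secreted glycoprotein, read 3.84, 3.62 and 3.88 RPKM against 1.66, 1.71 and 2.01, a log2 fold change of 1.04 ± 0.08 (limma adjusted p = 0.00174). *APOL1*, the trypanolytic apolipoprotein, read 0.834, 0.756 and 1.26 RPKM against 0.229, 0.221 and 0.0921, a log2 fold change of 1.91 ± 0.28 (limma adjusted p = 0.0108). The *APOL1* call held in 11 of 12 alternatives, with a limma adjusted p of at most 0.0562. The median of these 32 genes was 0.03, so that the list as a whole lay near the median of all genes while *LGALS3BP* and *APOL1* lay well above it. Targets linked more to interferon gamma had 1 call among 4 tested, which was lower.

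**Figure D5:**
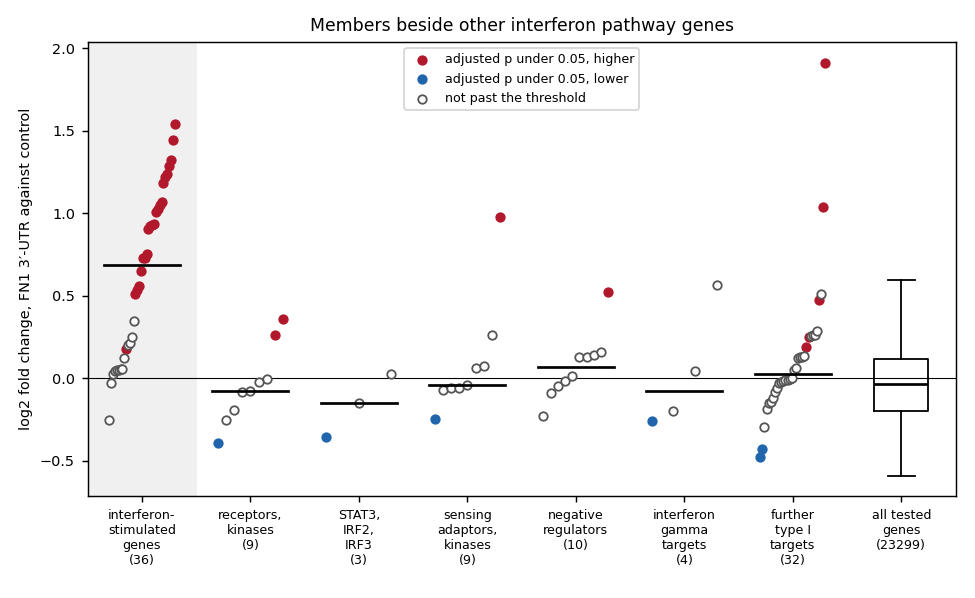
Log2 fold change of HGC27-FN1 3′-UTR against HGC27-control cells for the 36 tested ISGs and 6 lists of other pathway genes, with 1 point per gene, a line at each median, and for all 23299 tested genes a box for the quartiles with whiskers at the 5th and 95th percentiles. The median of the ISGs is 0.69 and that of the 67 other pathway genes is -0.01.

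Other genes also moved with the groups, and over all tested genes 5.62% were called higher and 7.36% lower. Of 6 epithelial markers 5 were called higher, and their summed RPKM was 18.4 to 27.3 against 2.93 to 3.30. Of 5 mesenchymal markers 4 were tested and 2 called higher, *FN1* and *SNAI2*, with *VIM* at a log2 fold change of 0.01 ± 0.06 and a summed RPKM of 310 to 336 against 304 to 342. *FN1* is the overexpressed gene, so its call says nothing separate about mesenchymal markers. That call was also lost in each of the 6 fits with a library left out. Of 6 fibroblast markers 3 were called higher, with a summed RPKM of 170 to 173 against 117 to 134. Of 10 immune markers 7 were found, 5 were tested and 1 (*NKG7*) was called lower, with a summed RPKM of 3.14 to 3.60 against 3.66 to 4.29 and *PTPRC* under 0.02 RPKM in every library. The 4 endothelial markers had 16 reads in all, and *PECAM1* was at 0. Fewer cells of a type and less RNA per cell cannot be told apart in such bulk samples. Whether the epithelial, mesenchymal or fibroblast markers had a part in the ISG values was not tested. The epithelial markers were uneven among HGC27-FN1 3′-UTR libraries, with a median ratio of library 3 to library 1 of 1.59 (0.736 to 1.81) over the 5 called, and the 23 called ISGs had a median ratio of 1.0 (0.747 to 1.59).

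The calls differed in how far they held. Of the 23 called ISGs, 15 were called under every alternative that tested them. The other 8, *IFIH1*, *EIF2AK2*, *OAS1*, *IFIT2*, *PARP9*, *IFI27*, *EPSTI1* and *CXCL10*, each lost the call in at least 1. *IFIH1*, *EPSTI1* and *CXCL10* lost it whichever library was left out, with log2 fold changes of 0.96 to 1.10, 1.0 to 1.32 and 0.96 to 1.17. *EIF2AK2* and *PARP9* kept it only without control library 1, *OAS1* and *IFI27* only without HGC27-FN1 3′-UTR library 1, and *IFIT2* only without HGC27-FN1 3′-UTR library 2 or control library 2. None of the 23 called ISGs changed direction under an alternative, while 7 of the 13 that were not called did. Without HGC27-FN1 3′-UTR library 3, 15 ISGs were called.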

How the data were processed

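The data are 6 RNA-seq libraries, 3 from each group of HGC27 cells, grouped and numbered by their titles. The authors prepared stranded mRNA libraries and deposited RPKM per gene, 1 table per library with replicates kept apart. The submitters' processing notes name Trimmomatic 0.36, STAR 2.5.3a, featureCounts, Subread 1.5.1 and the GRCh38 build. The strand setting and the handling of duplicate reads are not given in the sources used here. Of the 47 genes, 5 share exon bases with a gene on their own strand and 13 with a gene on the other strand. Multiplying RPKM by gene length gave whole reads (tolerance 0.05) for 100% of values above 0, which gave the depth of each library and the read sums.

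From the deposited values, log2(RPKM + 0.1) was fitted with limma 3.58.1 in R 4.3.3 (group only, trended eBayes, Benjamini-Hochberg adjustment) over the 23299 genes that reached an RPKM of 0.1 in no fewer than 3 libraries. A gene at adjusted p under 0.05 was called. The fit was tested on simulated data. An exact permutation test of 3 against 3 cannot go below 0.1 and was not used.

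The genes and lists were chosen with earlier results of these data known. Values in every library are given for called members, for the 10 with the highest mean RPKM, and for any with a library at 0 while another reached 0.1. Pathway genes were named where called with an absolute log2 fold change above 0.5, plus *IFNAR1*, *IFNAR2*, *JAK1* and *TYK2*. The other called pathway genes, *MAVS* among them, were named after their values were seen. A further pathway gene is not reported here. The alternatives were other pseudocounts, filters, scaling and thresholds, a replicate block, voom on recovered reads, and leaving out each library. Promoters came from RefSeq (GRCh38.p14), and gene spans from the deposited tables.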

Additional observations from a re-analysis of the deposited data

How the results depend on the processing

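No value of a called ISG changed sign under any alternative. Over the 36 tested ISGs and all alternatives, 455 values were compared with those reported, of which 396 kept their side of the threshold, 56 lost the call and 3 gained it. Of the 396, 9 changed sign, in 7 ISGs that were not called (*CMPK2*, *DHX58*, *HERC6*, *IRF1*, *MX1*, *SP110* and *STAT2*) and to at most 0.07 from 0 on the log2 scale. With a pseudocount of 1 the median log2 fold change of the ISGs was 0.27 and 1 ISG passed the fold criterion. With a minimum of 1 RPKM, 14 ISGs were called, 4 passed the fold criterion and the median was 0.53, where fewer ISGs were tested. Without a filter the median was 0.51. At adjusted p under 0.1, 2012 genes were higher and 2944 lower, with 1 ISG lower. Voom on recovered reads called 2042 genes higher and 3066 lower, 1 ISG lower and 15 pathway genes higher. The correlations of deviations for same-numbered libraries were 0.002, 0.021 and 0.010. The labels do not say whether such libraries were prepared together, and these correlations cannot decide it. With the replicate block 564 genes were called higher and 598 lower, 15 ISGs higher, and 3 pathway genes higher and 2 lower. Leaving out 1 library at a time gave 472 to 901 genes higher and 431 to 1010 lower, with the lowest counts without control library 2. It gave 15 to 17 ISGs higher, a median of 0.62 to 0.70, 3 to 7 pathway genes higher and 0 to 5 lower. The cause of these differences was not tested. For ISGs under 0.1 RPKM, counts of 7 to 68 reads over all libraries limit what can be seen.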
